A study of Bos taurus with 20 samples.

Results

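The ubiquitin ligases known from muscle wasting, and the FOXO transcription factors that act on some of them, were followed in bovine neck muscle as a set of 9 genes. The ligases were FBXO32, TRIM63, FBXO40, FBXO30, FBXO31, NEDD4 and CBLB, and the factors were FOXO1 and FOXO3. They were chosen by symbol, older symbols included, with no measured value in the rule but with earlier results of these data known. On the array 11 probes carried them. Of these 11 probes 10 passed the filter on low signal, so that all 9 genes were tested, among 11401 genes with a symbol on 15437 tested probes.

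Ubiquitin ligases attach ubiquitin to chosen proteins, which marks many of them for breakdown by the proteasome. In rodent and human muscle FBXO32 (atrogin-1 or MAFbx) and TRIM63 (MuRF1) are known for transcripts that increase during fasting, disuse and glucocorticoid excess. FOXO1 and FOXO3 are forkhead factors that switch on such ligases in rodent muscle, and insulin and IGF1 signalling through AKT keeps them out of the nucleus.

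The treated cows had received dexamethasone, a synthetic glucocorticoid that the labels spell dexamethazone, by mouth at 0.4 mg per animal and day for 31 days. They had also received estradiol, an oestrogen, by intramuscular injection at 5 mg per animal and week, 6 times. Because every treated animal received both hormones, the effects of the hormones cannot be told apart. Control cows were labelled as controls with no agent named, and breed and age are not given in the sources used here. Muscle was collected at a slaughterhouse and kept under vacuum at 4 °C, and each of the 10 animals gave a sample at storage day 0 and at day 14. The 20 arrays thus formed 4 groups of 5, namely treated at day 14, control at day 14, treated at day 0 and control at day 0.

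Levels are log2 values of the processed signal after subtraction of the array's own 75th percentile, called the scaled signal below. A probe's own brightness enters this level, so levels of different genes were not compared. Correlations between arrays of 1 group lay between 0.945 and 0.986. The arrays of stored muscle were dimmer. Their 75th percentile ran from 325 to 451 in treated and from 278 to 534 in control samples at day 14, against 719 to 949 in treated and 657 to 936 in control samples at day 0. It fell by 1.03 on average on the log2 scale, in 10 of 10 animals (two-sided exact permutation test, p = 0.00195, adjusted p = 0.0176 over 9 tests). The tissue label was checked with 12 markers of skeletal muscle fibres, of which 10 were measured and all 10 lay well above background on every array. These are bulk samples, in which fewer cells of a type and less RNA per cell cannot be told apart.

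**Figure D1:**
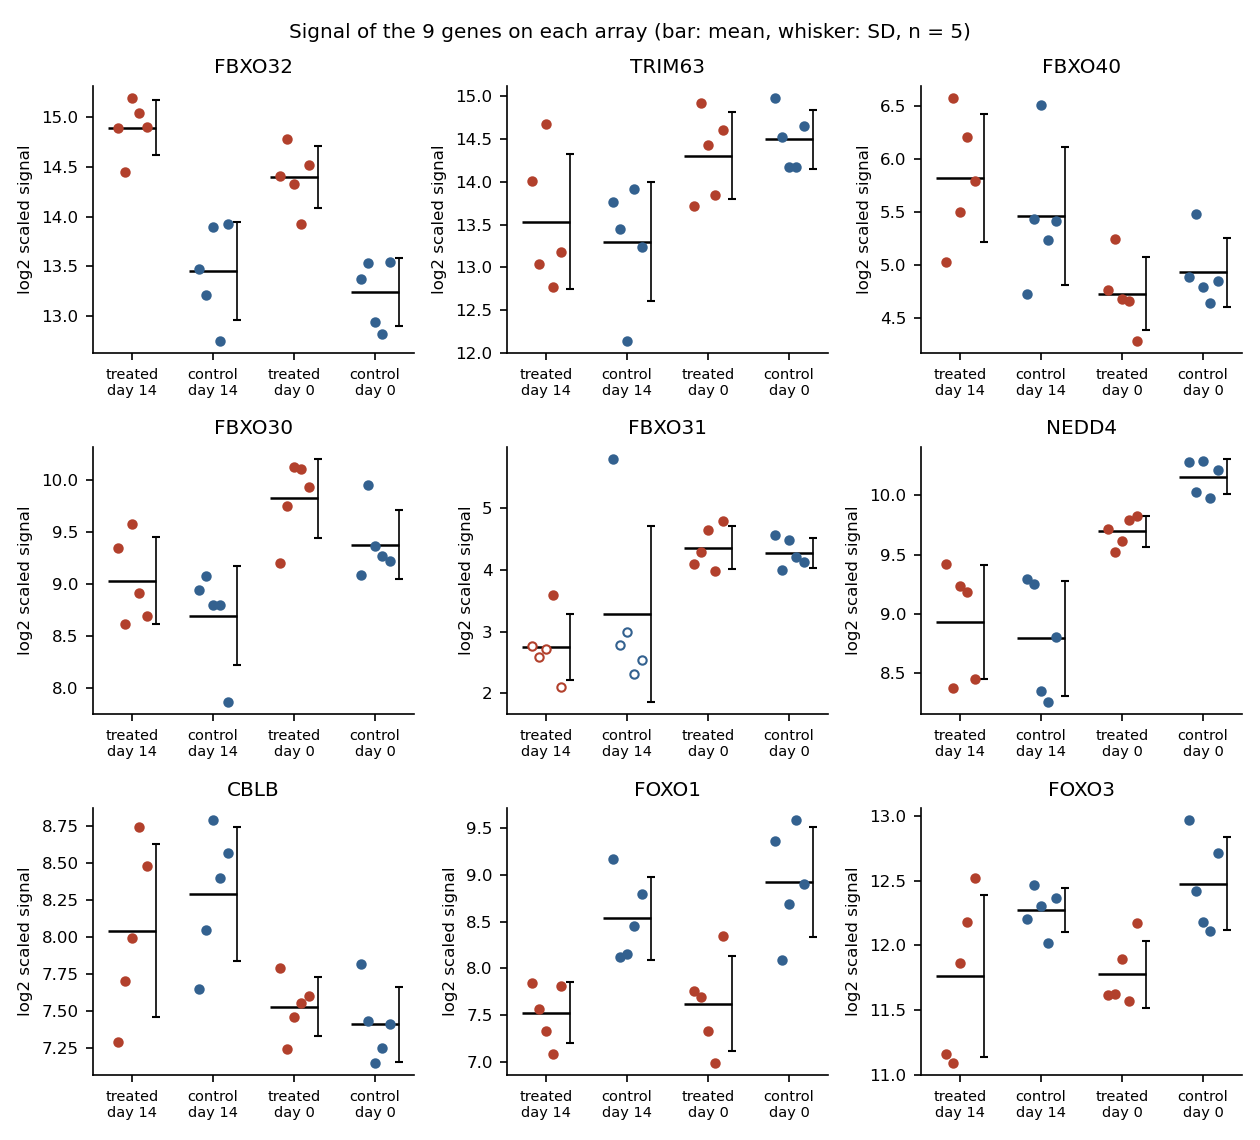
Scaled log2 signal of the 9 genes on each of the 20 arrays, with 1 panel per gene (brightest tested probe), groups on the horizontal axis, bars for means and whiskers for the SD of 5 animals. Open points were not well above background. FBXO32 lies between 13.93 and 15.19 on treated arrays and between 12.75 and 13.92 on control arrays, and FOXO1 lies lower on the treated arrays of each day on average.

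FBXO32, the ligase that targets MyoD and the translation factor EIF3F in rodent and human cells, was the 1 gene of the 9 that passed the test of treatment at day 0. Its scaled signal was 14.41, 14.78, 14.32, 13.93 and 14.52 in treated animals DE27, DE29, DE30, DE31 and DE32, against 13.53, 12.94, 12.81, 13.55 and 13.37 in control animals K3, K6, K8, K9 and K10. Every treated animal thus lay above every control animal. FBXO32 rose 2.23-fold, or 1.15 ± 0.20 on the log2 scale (SE, n = 5 per group, limma adjusted p = 0.0184). Over all probes, 2.45% passed in this comparison, 1.32% as higher, and 2.92% had treated arrays all above the control arrays. By p FBXO32 ranked 124 of 15437 probes.

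After 14 days of storage the FBXO32 difference was measured again in the same animals. The scaled signal was 14.90, 14.45, 15.19, 15.04 and 14.90 in treated animals DE27, DE29, DE30, DE31 and DE32, against 13.21, 13.90, 12.75, 13.92 and 13.47 in control animals K3, K6, K8, K9 and K10. Again every treated animal lay above every control animal, as was the case for 1.18% of all probes. The log2 fold change of 1.45 ± 0.25 missed the threshold after adjustment (limma adjusted p = 0.0836) although FBXO32 ranked 19 of 15437 by p. Only 11 probes passed at day 14, or 0.0713%, while 1609 had an unadjusted p under 0.05. None of the 9 genes passed at day 14. With outlier spots kept the FBXO32 value was 1.63 and passed (adjusted p = 0.0412), and with all 20 arrays in 1 fit and the animal as a random block it passed with the same log2 fold change of 1.45 (adjusted p = 0.00559). These were the only 2 of 10 other settings in which FBXO32 passed at day 14, with values from 1.06 to 1.63. It passed in 0 of the 10 fits without 1 animal (1.27 to 1.56, adjusted p from 0.0758 to 0.197).

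Averaged over each animal's arrays, FBXO32 reached 14.64 ± 0.10 in treated animals and 13.34 ± 0.35 in control animals (SD, n = 5 each). The lowest treated animal had 14.48 and the highest control animal 13.73. This is a 2.46-fold rise, a log2 fold change of 1.30 ± 0.16 (limma adjusted p = 0.00312), in a comparison in which 3.37% of all probes passed, 1.41% as higher and 1.96% as lower. It and FOXO1 were the 2 of the 9 genes that passed. The mean of both days shares its arrays with both comparisons by day and is not independent of them. The 4 group means of FBXO32 ran in the order treated at day 14 (14.90 ± 0.28), treated at day 0 (14.39 ± 0.31), control at day 14 (13.45 ± 0.49) and control at day 0 (13.24 ± 0.34). Within each treatment the neighbouring days did not differ beyond the test, as given below with the storage values.

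Slide and scan day were shared by some treated and control samples, which allowed the FBXO32 difference to be read within them. At day 0 the treated minus control difference was 1.55, 0.95 and 1.04 in log2 units within the 3 slides that held both groups. At day 14 it was 0.77, 1.19 and 1.43 within 3 slides. The 6 slide values and the 5 scan-day values (0.77 to 1.55) were above 0. That sign was fixed in advance, because on each day every treated array lay above every control array. Some scan-day values also rest on the same arrays as slide values. The day 0 call was kept when any 1 animal was left out (adjusted p from 0.0230 to 0.0469) and under the 10 other settings (adjusted p from 0.0109 to 0.0425).

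**Figure D2:**
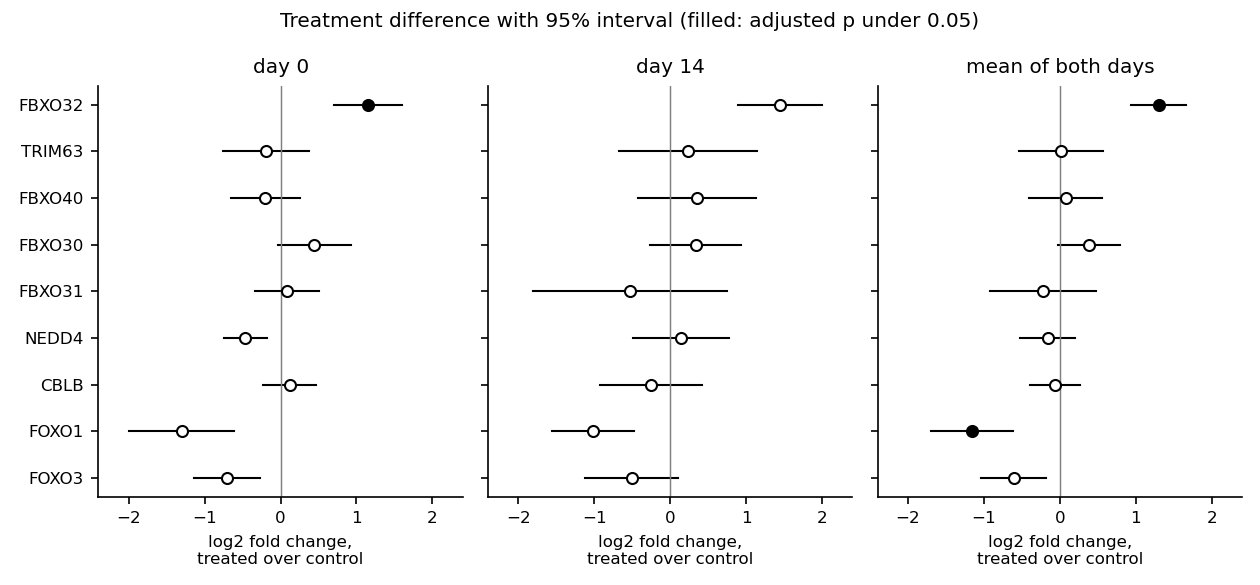
Log2 fold change of treated over control (horizontal axis) for each of the 9 genes at day 0, at day 14 and for the mean of both days, with 95% intervals from limma. Filled points passed at an adjusted p under 0.05, which are FBXO32 at day 0 (1.15) and FBXO32 (1.30) and FOXO1 (-1.16) for the mean of both days.

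FOXO1, a forkhead factor that in rodents links low insulin signalling to protein breakdown and fuel choice in muscle, stood lower in treated animals. At day 0 its scaled signal was 7.76, 7.70, 7.33, 6.99 and 8.34 in treated animals DE27, DE29, DE30, DE31 and DE32, against 8.09, 8.69, 9.59, 8.91 and 9.36 in control animals K3, K6, K8, K9 and K10. The groups overlapped through treated animal DE32 and control animal K3. The log2 fold change of -1.30 ± 0.31 missed the threshold (limma adjusted p = 0.0568). It passed without K3 (-1.51, adjusted p = 0.0344), without DE32 (-1.48, adjusted p = 0.0462) and with a block for the slide (-1.55, adjusted p = 0.0374), a fit in which DE32 is alone on its slide and adds nothing to the contrast. It also passed with normexp, a model-based background correction of the mean signal (-1.25, adjusted p = 0.0279), among probes above background on all arrays (adjusted p = 0.0400), with the scan day as a block (-1.39, adjusted p = 0.0476) and with the animal as a random block (adjusted p = 0.0268). In all, it passed in only 2 of the 10 fits without 1 animal (adjusted p up to 0.129) and under 5 of the 10 other settings (adjusted p up to 0.087).

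At day 14 every treated animal lay below every control animal in FOXO1, as for 1.11% of all probes. The scaled signal was 7.84, 7.57, 7.33, 7.08 and 7.81 in treated animals DE27, DE29, DE30, DE31 and DE32, against 8.12, 8.16, 8.45, 8.79 and 9.17 in control animals K3, K6, K8, K9 and K10. This was a log2 fold change of -1.01 ± 0.25 (limma adjusted p = 0.218). Over the mean of both days FOXO1 averaged 7.57 ± 0.41 in treated animals and 8.73 ± 0.47 in control animals (SD, n = 5 each). On that mean FOXO1 fell 2.23-fold, with a log2 fold change of -1.16 ± 0.25 (limma adjusted p = 0.0308). That call was lost when any 1 of K8, K9, K10, DE27, DE29, DE30 and DE31 was left out, with log2 fold changes of -1.22 to -1.02 and adjusted p from 0.05001 to 0.0772. Within slides the treated minus control difference of FOXO1 was -0.69, -2.09 and -1.60 at day 0 and -0.45, -1.59 and -1.36 at day 14, below 0 in all 6. At day 14 that sign was fixed in advance, because the groups did not overlap.

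The order of the FOXO1 group means was control at day 0 (8.93 ± 0.59), control at day 14 (8.54 ± 0.44), treated at day 0 (7.62 ± 0.51) and treated at day 14 (7.52 ± 0.32). The days within a treatment did not differ beyond the test. On the single arrays FBXO32 separated the treatments and FOXO1 did so in part, with treated animal DE32 at day 0 above 3 control arrays. No correlation is given across the treatments.

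**Figure D3:**
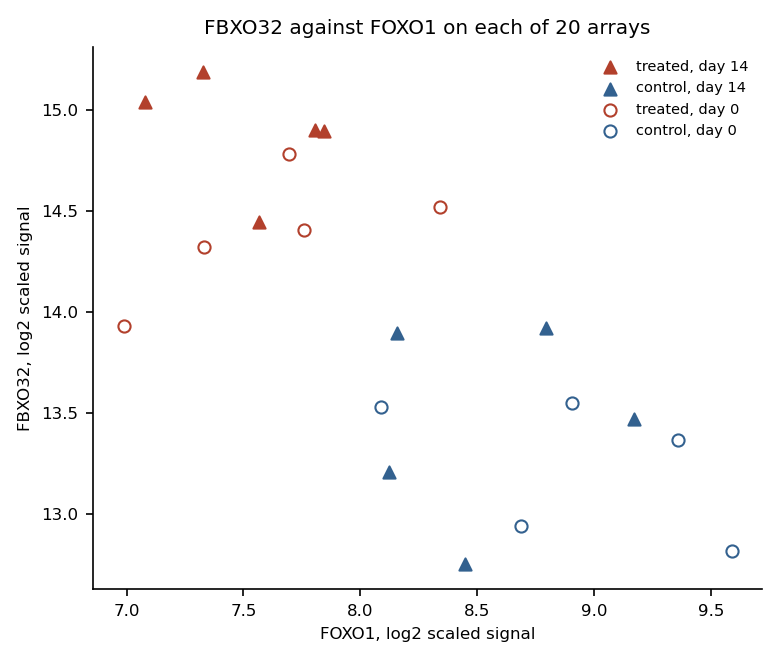
FBXO32 (vertical axis) against FOXO1 (horizontal axis) in scaled log2 signal on each of the 20 arrays, with treated animals in red, control animals in blue, day 14 as triangles and day 0 as open circles. The 10 treated arrays lie above 13.92 in FBXO32 and at or below 8.34 in FOXO1, and the 10 control arrays lie at or below 13.92 and at or above 8.09.

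FOXO3, the forkhead factor first tied to FBXO32 induction in rodent muscle, had values in the same direction as FOXO1 that did not pass. At day 0 its scaled signal was 11.62, 11.63, 11.89, 11.57 and 12.17 in treated animals DE27, DE29, DE30, DE31 and DE32, against 12.42, 12.18, 12.11, 12.71 and 12.97 in control animals K3, K6, K8, K9 and K10. Treated animal DE32 overlapped the control range. On the log2 scale the difference was -0.70 ± 0.20 at day 0 (limma adjusted p = 0.0925), -0.51 ± 0.28 at day 14 (adjusted p = 0.561) and -0.60 ± 0.20 on the mean of both days (adjusted p = 0.118). The last of these passed with the scan day as a block (-0.62, adjusted p = 0.0314) and without DE32 (-0.75, adjusted p = 0.0497). These were 1 of 9 other settings and 1 of 10 fits without 1 animal.

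TRIM63, the RING ligase of the sarcomere that acts on thick-filament proteins in mouse muscle, showed no treatment difference that passed. Its scaled signal at day 0 was 13.72, 14.92, 14.43, 13.85 and 14.61 in treated animals DE27, DE29, DE30, DE31 and DE32, against 14.52, 14.17, 14.17, 14.65 and 14.98 in control animals K3, K6, K8, K9 and K10. The ranges overlapped widely. Its log2 fold change was -0.19 ± 0.26 at day 0 (95% interval -0.76 to 0.37, limma adjusted p = 0.757) and 0.23 ± 0.42 at day 14 (-0.68 to 1.15, adjusted p = 0.863). The day 0 interval of TRIM63 lies wholly below that of FBXO32 (0.71 to 1.60), and the difference between these 2 genes was not itself tested.

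NEDD4, a HECT ligase that increases in unloaded and denervated rodent muscle, was read by 3 probes. Its brightest probe, described in the deposited annotation as human transcript variant 1, read 9.72, 9.52, 9.62, 9.79 and 9.83 at day 0 in treated animals DE27, DE29, DE30, DE31 and DE32. Control animals K3, K6, K8, K9 and K10 read 10.03, 10.29, 9.97, 10.21 and 10.28. Every treated animal was below every control animal, as for 2.96% of all probes, but the log2 fold change of -0.46 ± 0.13 did not pass (limma adjusted p = 0.0838). A dimmer probe, described as variant 2, had -0.42 ± 0.19 (adjusted p = 0.295). At day 14 the brightest probe had 0.14 ± 0.29 (adjusted p = 0.887). The third probe was well above background on 2 of 20 arrays, both from treated animals at day 14, and was not tested.

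The other 4 ligases had no treatment difference that passed at either day. FBXO30 (MUSA1), a ligase under the control of BMP signalling in mouse muscle, averaged 9.83 ± 0.38 in treated and 9.38 ± 0.34 in control animals at day 0 (SD, n = 5 each, log2 fold change 0.44 ± 0.22, limma adjusted p = 0.330). CBLB, known from unloaded rodent muscle as a ligase of IRS1, had 0.12 ± 0.16 (adjusted p = 0.762). FBXO40, a muscle-specific ligase of IRS1 in mouse, had -0.20 ± 0.21 (adjusted p = 0.682), and FBXO31, a ligase of cyclin D1 in human cells, had 0.09 ± 0.19 (adjusted p = 0.861). At day 14 these 4 genes lay between -0.53 and 0.35 with adjusted p from 0.697 to 0.798.

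Other genes of the pathway were read from 6 lists, whose genes were chosen with earlier results of these data known. At day 0, 148 of 11401 genes rose and 123 fell over all genes, or 2.38%. None of 25 other ubiquitin ligases of muscle passed (median log2 fold change -0.02, against 0.00 over all genes), and the 3 of smallest p were TRAF6 (0.29), UBE3A (-0.25) and KLHL41 (-0.56). None of 14 genes of the cullin-RING core passed, a list that is not limited to the complexes of FBXO32. Those of smallest p were CAND1 (-0.64, adjusted p = 0.0815), CUL3 (-0.43) and CUL5 (-0.42). Among 11 substrates of the member ligases none passed, with CCND1 at 0.72 and MYBPC1 at -0.61 among those of smallest p. Among 17 upstream signals none passed, with myostatin (MSTN) at -1.66 ± 0.44 (adjusted p = 0.0783), INSR at 0.56 and SMAD3 at -0.55.

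Of 21 measured FOXO kinases, regulators and partners 1 fell at day 0 and none rose. It was YWHAG, a 14-3-3 protein of the family that holds phosphorylated FOXO factors in the cytoplasm, at 13.87 ± 0.19 in treated and 14.51 ± 0.12 in control animals (log2 fold change -0.64 ± 0.13, limma adjusted p = 0.0320). Without any 1 of 9 of the 10 animals it no longer passed (-0.68 to -0.60, adjusted p from 0.0520 to 0.0964), nor did it with no filter, the slide as a block or the animal as a random block (adjusted p = 0.0674, 0.0637 and 0.170). Of 22 FOXO target genes 1 rose and 1 fell at day 0. IRS2, the insulin receptor substrate, was 7.53 ± 0.33 in treated and 6.52 ± 0.41 in control animals (1.01 ± 0.23, adjusted p = 0.0439), a call that was also lost without any 1 of 9 animals (adjusted p from 0.0520 to 0.0943), with no filter (0.0712) and with the animal as a random block (0.313). SESN1, a stress-induced restrainer of mTORC1, was 3.81 ± 0.14 in treated and 5.23 ± 0.56 in control animals (-1.42 ± 0.24, adjusted p = 0.0168). It was well above background on 4 of 5 treated arrays and on all 5 control arrays, and kept its call in each of the 10 fits without 1 animal (adjusted p up to 0.0485). With the animal as a random block the SESN1 call was lost (adjusted p = 0.0508), and with normexp its value was -0.59.

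On the mean of both days 3 of 22 FOXO target genes passed, 1 higher and 2 lower, where 3.2% of all genes passed. ULK1, a kinase that starts autophagy, rose by a log2 fold change of 0.40 ± 0.10 (limma adjusted p = 0.0468), a call lost in every fit without 1 animal (adjusted p from 0.0676 to 0.108) and under 5 of the other settings (adjusted p from 0.0753 to 0.420). SESN1 fell by 1.02 ± 0.20 on the log2 scale (adjusted p = 0.0238) and SESN3 by 0.67 ± 0.13 (adjusted p = 0.0226). Each of these calls was lost without some animals: SESN1 without K6, K8 or K9 (adjusted p up to 0.0622) and SESN3 without K8, K9 or DE29 (up to 0.0581). With normexp SESN1 was -0.39 (adjusted p = 0.598) and SESN3 -0.60 (adjusted p = 0.0954), and with the slide as a block both were lost too (adjusted p = 0.0681 for SESN1 and 0.0891 for SESN3). In the other 5 lists none passed. Among the genes of smallest p there were UBR2, SMURF1 and TRIM72 among the ligases (0.38, -0.42 and 0.44), CAND1, NAE1 and COPS2 in the cullin core (-0.61, 0.37 and 0.18), STK3 and PPARGC1A among the regulators (-0.43 and 1.26), CKM and MYL1 among the substrates (0.36 and 0.22) and HDAC4, INSR and SMAD3 among the upstream signals (0.38, 0.53 and -0.41). At day 14 no gene of the 6 lists passed, where 0.0614% of all genes did. Among those of smallest p by list were UBR2 (0.62), SMURF1 (-0.85) and TRIM72 (0.89), CAND1 (-0.59), NAE1 (0.36) and RNF7 (0.41), STK3 (-0.57) and SIRT2 (0.47), ULK1 (0.47), SESN3 (-0.67) and INSR (0.50), MYL2 (0.41) and MYL1 (0.40), and HDAC4 (0.47) and NR3C1 (0.37).

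**Figure D4:**
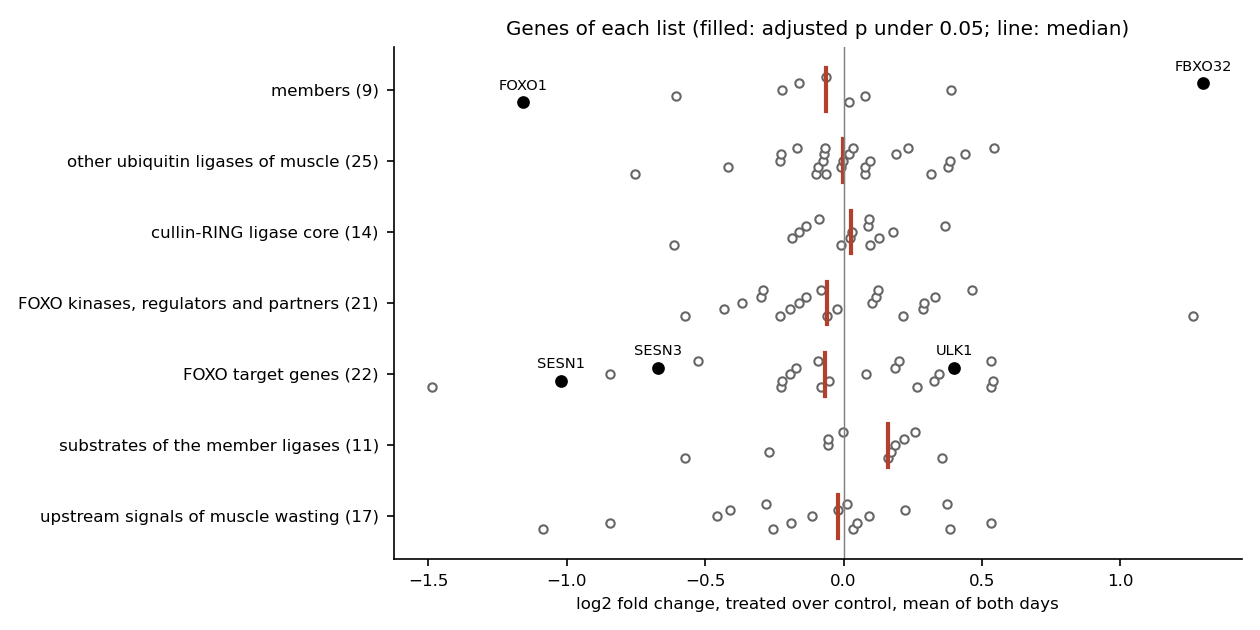
Log2 fold change of treated over control for the mean of both days (horizontal axis), 1 point per gene, for the 9 genes and for the 6 pathway lists, with the number of measured genes in brackets and red lines at the medians. Filled points passed at an adjusted p under 0.05, and these are FBXO32, FOXO1, ULK1, SESN1 and SESN3.

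Markers of other cell types were read beside the treatment differences. At day 0 the satellite cell marker CDH15 fell (log2 fold change -0.69, limma adjusted p = 0.0460), 1 of 4 measured satellite cell markers. The mean log2 level of these markers ran from 7.49 to 8.26 in treated and from 7.94 to 8.56 in control animals. For the mean of both days NCAM1 of the same list and PMP22 of 5 nerve and Schwann cell markers fell. Nerve marker means ran from 7.67 to 9.69 in treated and from 8.78 to 10.04 in control animals at day 0. No marker of muscle fibres, fibroblasts, endothelium, smooth muscle, fat, macrophages, lymphocytes or red blood cells passed in the 3 treatment comparisons. At day 14, 0 of 7 fibroblast, 0 of 5 smooth muscle and 0 of 5 nerve markers were above 0 (median log2 fold changes -0.88, -0.69 and -0.70). Of 10 fibre markers 9 were above 0 (median 0.51), against 2 of 6 endothelial and 2 of 4 satellite cell markers. Over all genes 6347 of 11401 were above 0 at day 14, and 0.0614% passed. The part of any cell type in the FBXO32 and FOXO1 differences was not tested.

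The genes most like FBXO32 over the 20 arrays were AGTRAP, METRNL, MAP2K7, IER3 and IFIT3, with Pearson r from 0.81 to 0.84 among 11400 genes compared. METRNL, which encodes a secreted protein of muscle and fat, had a log2 fold change of 1.39 ± 0.23 at day 0 (limma adjusted p = 0.0163). After the 4 group means were taken out, r with FBXO32 was between 0.00 and 0.32, so that the likeness lay mostly between groups. The genes most like FOXO1 were B3GALNT2, ARMC12, PER2, STXBP5L and GDF10, with r from 0.81 to 0.90. With the group means taken out, r with FOXO1 was still between 0.46 and 0.75, and was highest for B3GALNT2. B3GALNT2, a glycosyltransferase that acts on dystroglycan, had a log2 fold change of -1.12 ± 0.23 at day 0 (adjusted p = 0.0300). The 20 arrays share animals and slides, and these r are descriptions.

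Storage was compared within each treatment, day 14 against day 0. In treated animals 4 of the 9 genes passed, FBXO40 higher and NEDD4, FBXO31 and FBXO30 lower, where 29.6% of all probes passed (17.8% higher and 11.8% lower). In control animals 4 passed, CBLB higher and TRIM63, NEDD4 and FBXO30 lower, where 39.1% of all probes passed (21.7% higher and 17.4% lower). The members' counts lie near these shares. Day 14 and day 0 did not overlap, with day 14 lower, for NEDD4 and FBXO31 in treated animals (8.1% of all probes) and for TRIM63, NEDD4 and FBXO30 in control animals (11.9%). FBXO32, FOXO1 and FOXO3 passed in neither.

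NEDD4 was lower at day 14 on its brightest probe in 10 of 10 animals, as were 10.1% of all probes. Its scaled signal at day 14 was 9.42, 8.37, 9.24, 9.18 and 8.45 in treated animals DE27, DE29, DE30, DE31 and DE32, and 9.25, 8.35, 8.26, 8.81 and 9.29 in control animals K3, K6, K8, K9 and K10, all below every day 0 value of their treatment. It fell by 0.76 ± 0.23 on the log2 scale in treated animals (limma adjusted p = 0.0274) and by 1.36 ± 0.22 in control animals (adjusted p = 0.00159). The 2 tested NEDD4 probes disagree: the variant 2 probe had 0.52 ± 0.33 in treated and -0.02 ± 0.28 in control animals, neither of which passed. With the mean of the probes the treated value was -0.12 (adjusted p = 0.727), and the treated call was also lost without DE29, DE30, DE31 or DE32 (-0.86 to -0.61, adjusted p from 0.0503 to 0.125).

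TRIM63 in treated animals was 14.00, 13.04, 14.68, 12.77 and 13.18 at day 14 in DE27, DE29, DE30, DE31 and DE32, with a log2 fold change of -0.77 ± 0.37 that did not pass (limma adjusted p = 0.142) except with normexp (-0.94, adjusted p = 0.0238). DE27 and DE30 were higher at day 14 than at day 0 and the other 3 treated animals lower. In control animals it was 13.44, 12.14, 13.91, 13.24 and 13.77 at day 14 in K3, K6, K8, K9 and K10, all below the day 0 values given above. It fell 2.29-fold there, a log2 fold change of -1.20 ± 0.32 (adjusted p = 0.0128), and without K9 it no longer passed (-1.14, adjusted p = 0.0639).

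FBXO30 was lower at day 14 in 9 of 10 animals. The scaled signal averaged 9.03 ± 0.42 at day 14 and 9.83 ± 0.38 at day 0 in treated animals, and 8.70 ± 0.48 at day 14 and 9.38 ± 0.34 at day 0 in control animals (SD, n = 5 each). Its log2 fold change was -0.79 ± 0.25 in treated animals (limma adjusted p = 0.0328) and -0.68 ± 0.25 in control animals (adjusted p = 0.0487). With the animal as a block, which pairs the 2 samples of an animal, the treated value missed the threshold (adjusted p = 0.0547) and the control value passed (adjusted p = 0.0404). The control call was lost with quantile normalization (adjusted p = 0.0519), normexp (-0.42, adjusted p = 0.120), the authors' series table (0.0507), no filter (0.0532) and the slide as a random block (0.0758). Leaving out DE29, DE31 or DE32 ended the treated call (-0.71 to -0.68), and leaving out K3, K6, K8 or K9 the control one (-0.74 to -0.52), with adjusted p from 0.0852 to 0.137.

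CBLB averaged 8.04 ± 0.59 at day 14 and 7.53 ± 0.20 at day 0 in treated animals (log2 fold change 0.51 ± 0.27, limma adjusted p = 0.167), and passed with normexp (0.66, adjusted p = 0.0114). In control animals it averaged 8.29 ± 0.45 at day 14 and 7.41 ± 0.25 at day 0 and rose (0.88 ± 0.23, adjusted p = 0.0117). The control call was lost without K6, K8 or K9 (0.69 to 0.81, adjusted p from 0.0536 to 0.0620). FBXO40 averaged 5.82 ± 0.60 at day 14 and 4.73 ± 0.34 at day 0 in treated animals (1.09 ± 0.29, adjusted p = 0.0166), and 5.46 ± 0.65 at day 14 and 4.93 ± 0.32 at day 0 in control animals (0.53 ± 0.30, adjusted p = 0.172), where it passed with normexp (1.05, adjusted p = 0.0357). The treated FBXO40 call was lost without DE31 or DE32 (0.98 and 0.99, adjusted p = 0.0806 and 0.0759), with quantile normalization and with the authors' series table. Before scaling between arrays, FBXO40 in treated animals stood at 5.23 at day 14 and 5.26 at day 0, and CBLB in control animals at 7.86 and 7.91, so that both rises are relative to arrays whose signal was lower at day 14.

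FBXO31 was well above background on all 10 arrays of day 0 and on 1 of 5 arrays of each treatment at day 14. Its scaled signal averaged 2.75 ± 0.54 at day 14 and 4.36 ± 0.35 at day 0 in treated animals, and 3.28 ± 1.42 at day 14 and 4.27 ± 0.24 at day 0 in control animals (SD, n = 5 each). Its change of -1.60 ± 0.27 in treated animals passed (limma adjusted p = 0.00200), and that of -0.99 ± 0.55 in control animals did not (adjusted p = 0.175). Its direction depended on the background correction: with normexp it was 1.01 in treated and 1.12 in control animals (adjusted p = 0.0126 and 0.0347). Without control animal K10, which read 5.78 at day 14, the control value was -1.54 and passed (adjusted p = 0.00101).

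FBXO32 had 0.50 ± 0.20 over storage in treated animals (limma adjusted p = 0.0846) and 0.21 ± 0.25 in control animals (adjusted p = 0.537), and was higher at day 14 in 7 of 10 animals. The treated value passed with quantile normalization (0.59, adjusted p = 0.0367) and without DE29 (0.71, adjusted p = 0.0395). These were 1 of 9 other settings and 1 of 5 fits without 1 animal. Its direction depended on the processing: over the 9 settings FBXO32 ran from -0.10 to 0.59 in treated and from -0.03 to 0.40 in control animals. FOXO1 had -0.10 ± 0.26 in treated and -0.39 ± 0.30 in control animals, and FOXO3 -0.01 ± 0.28 and -0.21 ± 0.19 (adjusted p from 0.325 to 0.978).

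**Figure D5:**
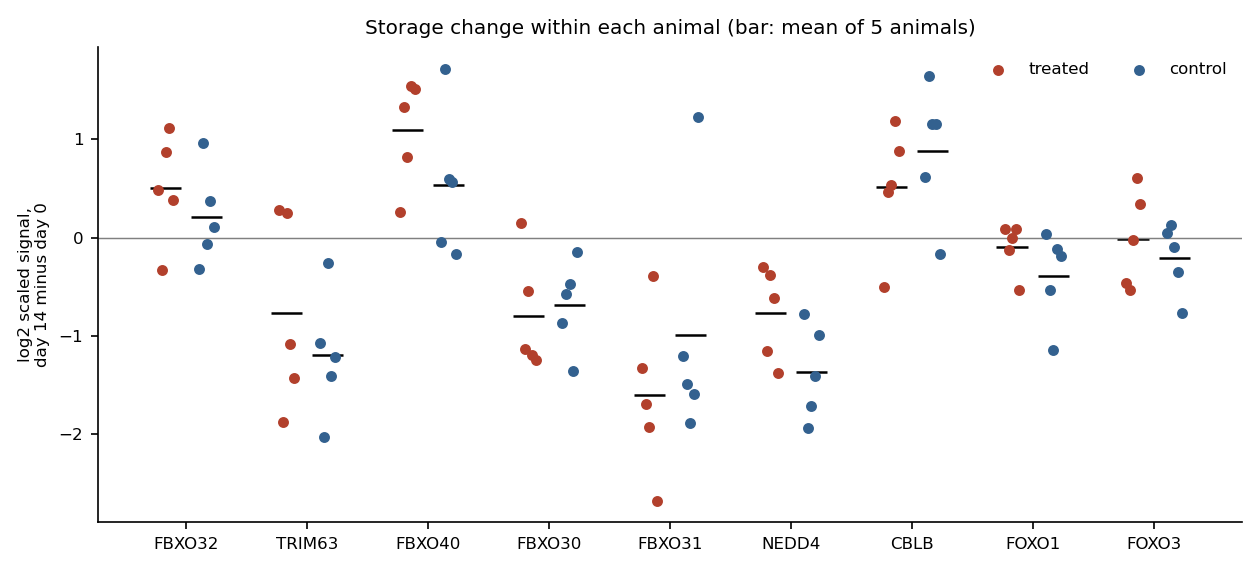
Change of scaled log2 signal over storage, day 14 minus day 0, in each animal (vertical axis) for the 9 genes, with 5 treated animals in red, 5 control animals in blue and bars at the means. The brightest tested probe of each gene is drawn. On it NEDD4 lies below 0 in all 10 animals, and the treated and control points overlap for every gene. The other tested NEDD4 probe, not drawn, was higher at day 14 in 6 of 10 animals.

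The change over storage was not shown to differ between treatments for any member. The test of the difference itself passed for 0 of the 9 genes and for 0 of 15437 probes, or 0%, while 534 probes had an unadjusted p under 0.05 (limma). NEDD4 had 0.60 ± 0.32 (95% interval -0.07 to 1.27). FBXO31 had -0.62 ± 0.65 (-1.98 to 0.75), a value that was -0.06 without control animal K10 and -0.11 with normexp. For FBXO32 the treatment difference was 0.29 ± 0.33 larger at day 14 than at day 0 in log2 units (-0.39 to 0.98).

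Storage samples shared slides and scan days only in part. Slide 5 held both samples of treated animal DE32, with day 14 minus day 0 differences of 1.51 for FBXO40, -1.24 for FBXO30 and -1.38 for NEDD4. Slide 6 held 2 control samples of day 14, from K3 and K8, and 1 of day 0, from K10, so its differences lie between animals. They were -1.30 for TRIM63, -1.53 for NEDD4, -0.15 for FBXO30 and 0.41 for CBLB. Scan days too held different animals at the 2 days in part. Within the 2 scan days of treated samples NEDD4 had -0.79 and -0.62 on its brightest probe. Within the 3 of control samples TRIM63 ran from -2.21 to -0.91 and NEDD4 from -1.81 to -1.04. The other tested NEDD4 probe had 0.99 and -0.46 in treated and -0.37 to 0.72 in control samples. Signs were fixed in advance where day 14 and day 0 did not overlap. That holds for the brightest NEDD4 probe, and for TRIM63 and FBXO30 in control samples. Scan day 3 of control samples held the same arrays as slide 6.

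Of the pathway lists, the cullin-RING core had 5 of 14 genes lower over storage in treated animals and 8 of 14 lower in control animals, with none higher. Over all genes 27.3% passed in treated and 37.7% in control animals, counting both directions. CUL5, a cullin scaffold, had a log2 fold change of -1.59 ± 0.31 in treated animals (limma adjusted p = 0.00432) and -2.05 ± 0.29 in control animals (adjusted p = 0.000826). COPS5, the catalytic subunit of the signalosome that removes NEDD8 from cullins, had -1.24 in treated and -1.49 in control animals. RBX1, the RING subunit of the complexes that hold F-box proteins such as FBXO32, had -0.94 in treated and -1.15 in control animals. SKP1, the adaptor that binds F-box proteins, had -0.91 in treated and -1.10 in control animals. CUL3 had -0.58 in treated animals, which did not pass, and -1.12 in control animals, which did.

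Among 25 other ligases of muscle 2 rose and 3 fell in treated animals, and 3 rose and 6 fell in control animals. That is 20% in treated and 36% in control animals, where 27.3% and 37.7% of all genes passed. TRIM72 had -1.12 in treated and -2.03 in control animals, UBE3A had -1.25 and -1.60, and NEDD4L, a close relative of NEDD4, had -1.15 and -1.60 in the same order. UBR2, a ligase of the N-degron pathway, had 1.49 in treated and 1.02 in control animals. WWP1 had -1.02 in treated animals, which did not pass (adjusted p = 0.0626), and -1.53 in control animals, which did. Among 22 FOXO target genes 3 rose and 5 fell in treated animals (36.4%) and 4 rose and 7 fell in control animals (50%). SESN1 was at 2.27 in treated and 1.48 in control animals. MAP1LC3B, an autophagosome protein, had -1.32 in treated and -1.85 in control animals. CCNG2 had -1.27 in treated and -1.07 in control animals, and ATG12 had -0.91 and -1.31 in the same order. CITED2 passed in treated animals (-1.05) and not in control animals (-0.20), and GADD45A did not pass in treated animals (-0.11) and passed in control animals (-1.67). The test of the difference itself did not pass for either gene (limma adjusted p = 0.999 each).

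Of 21 FOXO kinases and partners 2 rose and 2 fell in treated animals, namely SKP2 (0.67), USP7 (0.64), SIRT1 (-0.65) and STK3 (-0.59). In control animals 2 rose and 4 fell, with YWHAZ at 0.85, PRKAA1 at -0.97, YWHAG at -0.93 and YWHAE at -0.58. Of 11 ligase substrates 2 rose in treated animals, EIF3F (1.53) and MYH7 (0.74). In control animals 3 rose and 2 fell, with CCND1 (1.09), EIF3F (0.84), CKM (-1.10) and MYBPC1 (-0.89) of largest change. Of 17 upstream signals INSR rose, with 0.87 in treated and 0.93 in control animals, and SMAD4 fell, with -0.61 in treated and -0.51 in control animals. The kinases and partners thus passed at 19% in treated and 28.6% in control animals. The shares were 18.2% and 45.5% for the substrates, and 11.8% in each treatment for the upstream signals. Over all genes 27.3% passed in treated and 37.7% in control animals.

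Markers of other cell types moved with storage too. Of 7 fibroblast markers 4 fell in each treatment, with list means of 8.58 to 10.92 at day 14 and 10.67 to 11.85 at day 0 in treated animals. Of 10 muscle fibre markers 5 rose in treated animals, and 1 rose and 2 fell in control animals. Of 5 smooth muscle markers 0 passed in treated animals and all 5 rose in control animals, and of 6 endothelial markers 1 rose in treated and 4 rose in control animals. All 5 smooth muscle markers were above 0 in treated animals too (median 0.49, against 1.30 in control animals). Over all genes 27.3% passed in treated and 37.7% in control animals, and the test of the difference in storage change passed for 0 of 11401 genes. Of 4 adipocyte markers 2 fell in treated and 0 passed in control animals. Their part in the storage changes of the ligases was not tested. The median of all tested probes moved by 0.10 in treated and 0.09 in control animals over storage on the main scaling, by 0.48 and 0.46 with normexp, and by -0.02 and -0.01 with quantile normalization.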

How the data were processed

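Total RNA of 20 neck muscle samples was hybridised to 1-colour Agilent bovine arrays (cyanine 3). The authors deposited 1 scanner file per array, and per the file headers the processed signal intensity was background-subtracted and detrended by Feature Extraction 9.5.1.1. They also deposited a series table of intensity values on a linear scale, whose normalization between arrays is not given in the sources used here and whose log2 values correlated with the log2 processed signal at r from 0.999 to 1.000 within arrays (column medians 6.62 to 7.37), in the same direction with no gene centring. R 2.11.1 is named in the submitters' processing notes. Marks for outlier and background spots, other columns deposited per the file headers, were used for filtering.

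Processed signal was taken to log2, the 75th percentile of the array was subtracted and the mean of the 20 percentiles was added. Outlier spots (935) and control spots (1417 per array) were dropped, and spots of a probe averaged. Of 21475 probes, 15437 were tested because they were well above background on at least 5 of 20 arrays. Symbols came from the files' annotation matched to a RefSeq gene table (ARS-UCD2.0) (9796 probes by gene number, 3347 through their accession, 3321 from a description that holds the symbol, 8 from a symbol column), and 282 conflicts and 4721 further probes stayed unnamed. FBXO32, FBXO30, FOXO1 and 2 NEDD4 probes were named by a symbol in the description, which states similarity to the human transcript. A gene was represented by its tested probe of highest mean signal. No probe sequence or genome position was used, and a planned promoter motif search was not run for lack of promoter sequences.

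Comparisons used lmFit and eBayes of limma 3.58.1 in R 4.3.3, with statmod 1.5.0 and data.table version 1.17.8, and Benjamini-Hochberg adjustment over all tested probes with a threshold of 0.05. The fit was tested on simulated data. Tables were read with pandas 2.3.3 and numpy 2.4.6 in Python 3.11.15, and figures drawn with matplotlib 3.10.9. The alternatives were quantile normalization, normexp with an offset of 50, the series table, other filters, outlier spots kept, the mean of a gene's probes, slide, scan day or animal as blocks, and each animal left out. Each array is 1 sample of 1 animal, the number of arrays limits the precision, and p-values cover the spread between animals. The main storage comparisons and the test of the difference in storage change had no term for the animal. They thus treat the samples of an animal as independent, and the fits with the animal as a block are the alternative. Samples of the same animal number come from the same animal, which pairs them, and their deviations from group means correlated at -0.15 to 0.28, over 0.1 in 5 of 10 animals. Group and day came from titles and characteristics, because the free-text descriptions contradict the titles, and the day 0 sample titled D31 was read as DE31 by its number. All 9 members were named, with every list gene that passed a treatment comparison or otherwise the 3 of smallest p, the 4 largest changes over storage, and the 5 genes of largest r with FBXO32 and FOXO1. One list gene that this rule names is not reported here. Members and lists were chosen with earlier results of these data known.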

Additional observations from a re-analysis of the deposited data

Results flagged for a closer look

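In 44 groups of 5 arrays, 1 per member probe, treatment and day, the distance of the lowest or highest array to its neighbour was set against the range of the group by Dixon's test. Chance alone marks about 1 in 20 groups, and 2 were marked. FBXO30 in control animal K9 read 7.87 at day 14, against a nearest value of 8.80 in its group (gap over range 0.76). FBXO31 in control animal K10 read 5.78 at day 14, against a nearest value of 2.99 (0.81), and was the 1 control array of that day on which this probe lay well above background.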

How the results depend on the processing

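Of 948 recomputed log2 fold changes of the members, 895 stayed on their side of the threshold, 33 lost and 18 gained a call, and 2 reversed. A change of sign counted as a reversal only where at least 1 of the 2 values passed. Some values that passed in neither fit changed sign and are counted among the 895. Both reversals were FBXO31 over storage with normexp, at 1.01 in treated and 1.12 in control animals. The number of members that passed at day 0 was 1, and 2 with normexp, with probes above background on all arrays, with slide or scan day as a block, and in the fit of all arrays that has the animal as a random block. At day 14 it was 0, and 1 with outlier spots kept and with the animal as a random block. Without 1 animal the number ran from 1 to 2 at day 0, 1 to 3 on the mean of both days, and 1 to 5 over storage in each treatment, and stayed 0 at day 14 and for the difference in storage change. With the animal as a replicate block, 3 members passed over storage in treated animals, where FBXO30 was lost (adjusted p = 0.0547), and 4 in control animals. No other member's call changed with that block, and it gave 0 for the difference in storage change. Over all probes, the number that passed ran from 135 to 527 at day 0 (378 in the main comparison), 0 to 107 at day 14 (11), 136 to 982 on the mean (520), 2432 to 8833 over storage in treated (4565) and 3241 to 8469 in control animals (6042). The genes of the pathway lists that passed over treatment were recomputed after the data were seen. Of 292 values 243 stayed on their side of the threshold, changes of sign in values that never passed included, and 49 lost a call. Causes were not tested, and depth of signal limits FBXO31 and the third NEDD4 probe.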
